A study of Schizosaccharomyces pombe with 2 samples.

Results

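The histone genes of *S. pombe* that had a probe set of their own were followed in wt and *sgo2*Δ cells. The members are the probe sets whose platform gene symbol is exactly *hta1*, *hta2*, *htb1*, *hht1*, *hht2*, *hht3*, *hhf1*, *hhf2*, *hhf3* or *pht1*. This rule found 13 of 10928 probe sets, which represent 10 of the 2899 genes named by a probe set of their own. The rule itself uses gene symbols and no expression value, though the family was chosen with earlier results of these arrays known. The wt strain (JK107) and the strain deleted for *sgo2* (JP2247) were both of the *h*- mating type and grew exponentially in YES medium at 32 °C. From each strain, 0.3 μg of poly(A) RNA was labelled and hybridized to 1 GeneChip Yeast Genome 2.0 Array. Each group is thus 1 strain measured on 1 array, none of the values below has a replicate, and no p-value was computed.

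Nucleosomes wrap DNA around an octamer of the core histones H2A, H2B, H3 and H4. Fission yeast encodes H3 and H4 in a family of paired genes, H2A in *hta1* and *hta2*, and H2B in *htb1* alone. The genes of each H3-H4 pair, and *hta1* with *htb1*, are transcribed away from each other from a shared intergenic region. Transcription of most core histone genes peaks in S phase. Core histone messages carry poly(A) tails, as is usual in yeast, so that they are retained in poly(A) RNA. The gene *pht1* encodes the variant H2A.Z, which is placed into chromatin by the SWR1 complex. Phosphorylation of a serine in the tail of H2A by the kinase Bub1 is important for Sgo2, the protein removed here, to bind chromatin. The mark alone is reported not to be sufficient. The arrays address whether the transcripts of the histones themselves differ in cells that lack Sgo2.

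None of the 10 histone genes differed 2-fold between the strains. Their log2 ratios, *sgo2*Δ over wt on the signals as deposited, ran from -0.08 for *htb1* to 0.12 for *pht1* with a median of 0.02. In fold terms, the signal of *htb1* in *sgo2*Δ was 0.946 of its wt value and that of *pht1* was 1.09. Genes were counted as higher or lower from 2-fold upwards, provided that the brighter of both signals reached 100. By this rule 0 of 10 histone genes were higher and 0 were lower, whereas 0.536% (15) of the 2796 named genes that reached this signal were higher and 0.0358% (1) were lower. These shares cover named genes only. Of 2109 probe sets with a signal that name no gene, 51 were also higher by this rule. At 1.5-fold, 0 of 10 histone genes passed in either direction, beside 1% (28) of all named genes higher and 0.107% lower. With such low shares in the background, a count of 0 among 10 genes does not set the histone genes apart from other genes.

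Several facts of the arrays bear on all these values. The deletion was visible in its own gene, since *sgo2* had a signal of 581.5 on the wt array and 2.81 on the other, a drop of at least 5.82-fold when the latter is set to 100. Of the rows of the table, 5748 were listed at 0 on both arrays, and the highest signals were 11785 in wt and 11662 in *sgo2*Δ. The log2 ratios of the 2796 named genes had a median of 0.13 and a spread of 0.13, taken as the median absolute deviation scaled to a standard deviation. This spread is between genes and is not an error between cultures.

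H2A is the histone whose phosphorylated tail Sgo2 recognizes. The signal of *hta1* (SPCC622.08C on chromosome III) amounted to 7375 (wt) and 7428 (*sgo2*Δ), a log2 ratio of 0.01. That of *hta2* (SPAC19G12.06C on chromosome I), the H2A gene without an H2B partner, was 7025 and 7167, a log2 ratio of 0.03. Both H2A genes were therefore a few percent or less from their wt signal, and their log2 ratios differed by 0.019. The H2B gene *htb1* (SPCC622.09), the divergent partner of *hta1*, had signals of 6984 and 6606. Its log2 ratio of -0.08, 5.4% under the wt signal, was the lowest of the family. The H2A.Z gene *pht1* (SPBC11B10.10C on chromosome II) had signals of 4088 and 4445, a difference of 8.75% and a log2 ratio of 0.12. This ratio was the highest of the family as deposited, and hence also after centring, which keeps the order. With quantile normalization (-0.02) it was not the highest. The *pht1* gene also lay closest to the median of all named genes, 0.0074 under it.

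H3 is encoded by *hht1*, *hht2* and *hht3*. For *hht2* (SPBC8D2.04 on chromosome II), the signals were 8437 and 8816, a log2 ratio of 0.06. For *hht3* (SPBC1105.11C, also on chromosome II), the signals were 7750 and 7914, a log2 ratio of 0.03. The remaining copy, *hht1* (SPAC1834.04 on chromosome I), has a pair of probe sets. The one without a suffix gave 7729 and 7521, a log2 ratio of -0.039, and the one with the suffix _x gave 8286 and 8277, a log2 ratio of -0.0015. Their mean was -0.02. Among the H3 copies, the signal of *hht1* was thus slightly lower in *sgo2*Δ by both of its probe sets, and those of the other two were slightly higher, with signals as deposited; after centring all H3 copies lay below 0, and with quantile normalization all but *hht2* did.

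H4 is encoded by *hhf1*, *hhf2* and *hhf3*, each beside the H3 gene of the same number. The *hhf2* gene (SPBC8D2.03C) had signals of 6413 in wt and 6642 in *sgo2*Δ, a log2 ratio of 0.05. In *hhf1* (SPAC1834.03C), the probe set without a suffix gave 10003 and 9887, a log2 ratio of -0.017, and the probe set with the suffix _x gave 9260 and 8872, a log2 ratio of -0.062. In *hhf3* (SPBC1105.12), the corresponding signals were 8039 and 7890 (-0.027) and 9181 and 9208 (0.0042). With signals as deposited, the probe sets of *hhf3* lay on either side of 0 and those of *hhf1* below it, whereas after centring or quantile normalization all of these lay below 0. Over all 13 histone probe sets, 7 had a log2 ratio above 0 and 6 below as deposited, 0 and 13 after centring, and 1 and 12 with quantile normalization. As deposited, 84.7% of all named genes lay above 0.

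**Figure D1:**
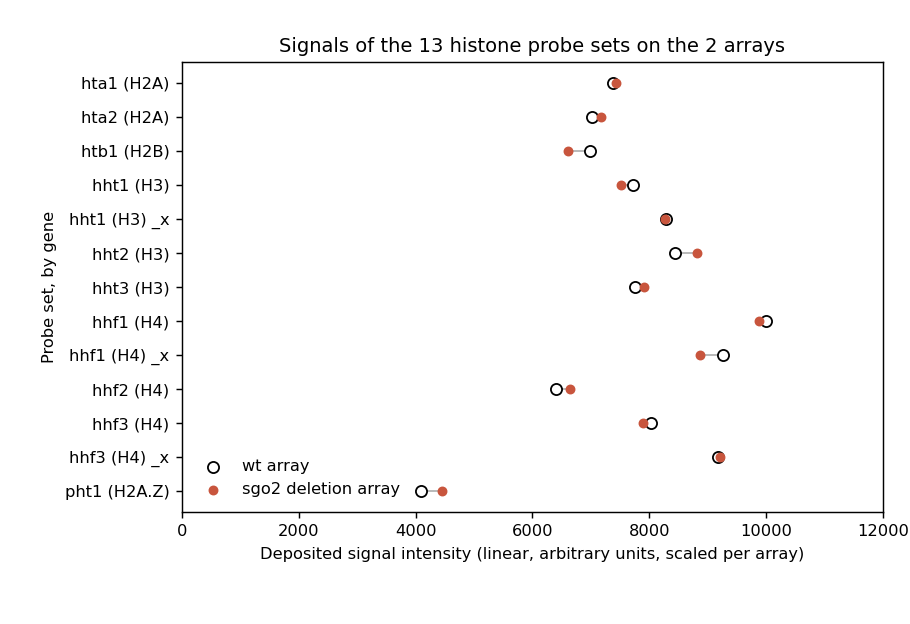
Deposited signal intensity (x axis, linear scale in arbitrary units) of each of the 13 histone probe sets (y axis) on the wt array (open circles) and the *sgo2*Δ array (filled circles), 1 array per strain with no error bars. Within each row the points lie close together, with the widest relative gap, 8.75%, in *pht1*; levels of different rows are not comparable, because they come from different probes.

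The suffix of a probe set says how specific it is. Of the 13 histone probe sets, 3 carry _x, which marks sets with probes that may also bind other sequences, 0 carry _s, which marks sets whose probes match several transcripts, and 10 carry no suffix. The _x sets belong to *hht1*, *hhf1* and *hhf3*, and each of these genes also has a set without a suffix. No probe set that names several genes named a histone gene. Within these 3 genes, the log2 ratios of the _x set and the other set differed by 0.038 in *hht1*, 0.045 in *hhf1* and 0.031 in *hhf3*. The _x set was the higher one in *hht1* and *hhf3* and the lower one in *hhf1*, so there was no common direction. Without the _x sets the log2 ratios became -0.039 for *hht1*, -0.017 for *hhf1* and -0.027 for *hhf3*, and the median of the family stayed at 0.02. The copies of a core histone encode the same or nearly the same protein, so sets without a suffix may still bind transcripts of more than 1 copy. The probe sequences were not used here, and how the signal divides among copies was not tested.

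The copies of each histone could be set against each other by their log2 ratios, though not by their levels. With signals as deposited, the log2 ratios differed by 0.019 to 0.09 over the 7 pairs of copies. The smallest gap was that between the H2A genes. The largest gaps separated *hhf2* from *hhf1*, by 0.09, and *hht2* from *hht1*, by 0.084, and in both cases the copy of the *hht2*-*hhf2* locus was the higher one. Between *hht2* and *hht3* the gap was 0.033, and between *hhf1* and *hhf3* it was 0.028, both within the range of 0.031 to 0.045 found between probe sets of a single gene or below it. The gaps of *hht1* to *hht3* (0.051) and *hhf2* to *hhf3* (0.062) exceeded that range. Centring leaves all gaps as they are, but quantile normalization changed several. Under it, *hhf2* differed from *hhf1* by 0.029 and from *hhf3* by 0.0064, while probe sets of a single gene differed by 0.056 to 0.066, and of the 7 gaps only that between *hht2* and *hht1* (0.099) exceeded this range. All 7 gaps were smaller than the spread of 0.13 over all named genes. The 280 brightest genes, to which these copies belong, had a standard deviation of 0.072 with signals as deposited. Both values are spreads of single log2 ratios, whereas a gap is a difference between such ratios. Neither therefore shows whether a gap is unusually wide.

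The 4 divergent gene pairs were next compared within themselves, with signals as deposited, since the signs and gaps changed with the scaling. At *hht2*-*hhf2*, both genes lay above 0 (0.06 and 0.05) and differed by 0.013. At *hht1*-*hhf1*, both lay below 0 (-0.02 and -0.04) and differed by 0.019. At *hht3*-*hhf3*, the genes lay on either side of 0 (0.03 and -0.01) and differed by 0.042. The H2A-H2B pair *hta1*-*htb1* differed most, by 0.091, with *htb1* the lower one. With quantile normalization, the gaps were 0.068 at *hht2*-*hhf2*, 0.0026 at *hht1*-*hhf1*, 0.028 at *hht3*-*hhf3* and 0.11 at *hta1*-*htb1*. The widest gap was thus at *hta1*-*htb1* under both scalings, and the order of the other loci was not kept.

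Brightness moved with these ratios. When the 2796 named genes were divided into 10 groups of nearly equal size by mean log2 signal, 9 of the 10 histone genes, all those of the core histones, fell in the brightest group (280 genes, mean signals from 6349 to 11660), and *pht1* fell in the next (4064 to 6347). The brightest group had a median log2 ratio of 0.04, with 5th and 95th percentiles of -0.05 and 0.16, whereas the group that held *pht1* had a median of 0.12 (-0.04 and 0.25). The highest median of any group was 0.17, in the group with mean signals from 2008 to 2765. The 9 core histone genes had a median of 0.01, and 7 of them lay below the median of their group. The 2 above it were *hht2* and *hhf2*. The histone gene farthest from its group's median was *htb1*, at 0.12 below it, and 3.57% of the genes of the group lay lower than *htb1*. The *pht1* gene lay 0.0051 above the median of its own group. All 10 histone genes lay below the median of all named genes, and 41.1% of all named genes fell between the lowest and the highest histone gene. The part of brightness in the ratios of the histone genes was not tested.

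**Figure D2:**
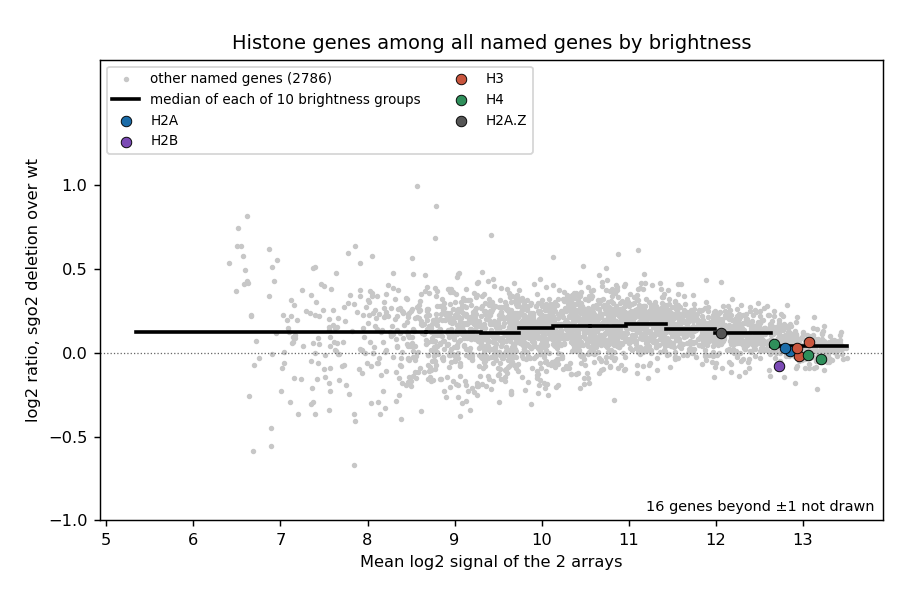
Log2 ratio of *sgo2*Δ over wt (y axis) against the mean log2 signal of the 2 arrays (x axis) for all 2796 named genes that reached a signal of 100, with histone genes in colour by the protein they encode and black bars for the median of each of 10 brightness groups; 16 genes beyond 1 on either side are not drawn. The core histone genes sit at the bright end, where the median bar drops to 0.04, and *pht1* sits on the bar of the group beside it.

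The sign of these small ratios depended on how the arrays were scaled. With signals as deposited, 6 of the 10 histone genes lay above 0 and 4 below. Of all named genes 84.7% lay above 0, and of the brightest group 76.8%. After log2 ratios were centred on the median of all named genes, 0 lay above 0, and the genes ran from -0.21 (*htb1*) to -0.0074 (*pht1*). With quantile normalization, 1 gene, *hht2*, lay above 0 (0.03), and 9 lay below, down to -0.17 for *htb1*. In that setting the median of the histone genes was -0.05 and that of all named genes -0.02, and 7 of the 10 histone genes lay below the latter. The lowest histone gene was *htb1* under all 3 scalings, and *hht2* was the highest of the H3 and H4 genes under all 3. Centring keeps the order of the genes by its construction, so only quantile normalization could have changed it. No scaling brought a histone gene to 1.5-fold.

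**Figure D3:**
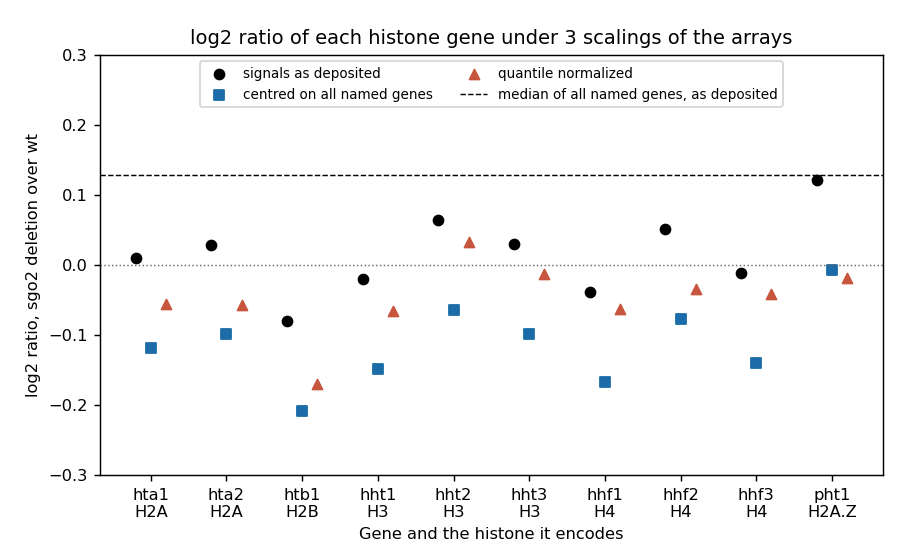
Log2 ratio of *sgo2*Δ over wt (y axis) of each histone gene (x axis) with signals as deposited (circles), centred on all named genes (squares) and quantile normalized (triangles), from 1 array per strain; the dashed line is the median of all named genes as deposited (0.13). All circles lie below the dashed line, and the 10 squares and 9 of 10 triangles lie below 0.

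The genes beside the histone loci gave a local comparison. Around the 6 loci (4 divergent pairs, *hta2* and *pht1*), 7 of the 12 adjacent protein-coding genes of the assembly ASM294v3 were named by a probe set. Their log2 ratios ran from 0.09 to 0.30 with a median of 0.20. Of the 7 neighbours, 0 differed 2-fold, beside 0.536% of all named genes higher and 0.0358% lower. Beside *hhf1*-*hht1*, with its log2 ratios of -0.04 and -0.02, the genes *aro1*, for synthesis of aromatic amino acids, and *alg9*, for protein glycosylation, stood at 0.16 and 0.22. Beside *hht3*-*hhf3*, *rav1* stood at 0.30 (587 in wt and 722 in *sgo2*Δ). On either side of *pht1* lay *cdc2*, the cyclin-dependent kinase gene, at 0.25 (2452 and 2915), and *shy1*, at 0.20. Next to *hta2* and *hht2* were *rsd1* and *sfi1*, at 0.19 and 0.09. All 7 measured neighbours were dimmer than the histone genes beside them, with wt signals of 587 to 2576. Every other brightness group had a median above that of the brightest (0.04), so this holds for any dimmer gene. Of the 7 neighbours, 6 lay above the median of all named genes (0.13). The part of brightness in the gap between neighbours and histone genes was not tested.

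A list of regulators of histone transcription, which also held the cell cycle factor genes *cdc10* and *sep1*, was then examined. In fission yeast, Ams2, a GATA-type factor, activates core histone genes in S phase, Teb1 binds telomere-like repeats in their promoters, and the HIRA proteins Hip1, Hip3, Hip4 and Slm9 repress them outside S phase. All 8 genes of the list of regulators reached a signal of 100. Of them, 0 were 2-fold higher and 0 lower, beside 0.536% and 0.0358% of all named genes. With such low shares, a count of 0 does not set this list or the lists below apart. The log2 ratio of *ams2* was -0.04, from signals of 472.4 and 458.8, and that of *teb1* was 0.09 (311.3 and 330.3). At the ends of the list were *slm9* at 0.24 and *sep1*, a forkhead factor gene of the cell cycle, at -0.24. The median of the regulators was 0.12, beside 0.13 for all named genes.

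Histone chaperones carry newly made histones to chromatin. The list of their genes shares *hip1*, *hip3*, *hip4* and *slm9* with that of the regulators. Of 22 chaperone genes, all were measured, and the median log2 ratio was 0.14. Among these, 0 differed 2-fold, beside 0.536% of all named genes higher and 0.0358% lower. The chaperone genes ran from -0.07 for *spt16*, a subunit of the FACT complex, to 0.25 for *mis18*, which acts in loading the centromeric H3 variant. Of the genes of the CAF-1 complex, which deposits H3 and H4 behind the replication fork, *pcf1* stood at 0.08, *pcf2* at 0.22 and *pcf3* at 0.24. The H3-H4 chaperone gene *asf1* and the H2A-H2B chaperone gene *nap1* stood at 0.01 and -0.01. The centromeric H3 variant itself, CENP-A, is encoded by *cnp1*, with signals of 348.2 and 424.9. This is a log2 ratio of 0.29 in a gene of the dimmest group, where the 5th and 95th percentiles were -0.31 and 0.62. After centring, the log2 ratio of *cnp1* was 0.16.

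Of 23 names listed for the SWR1 and INO80 remodelers, which exchange H2A.Z, *vps72* matched no current gene symbol, and 21 genes were measured. Of these genes, 0 differed 2-fold, beside 0.536% of all named genes higher and 0.0358% lower. The median of the list was 0.13, with *ies4* lowest (-0.10) and *ies6* highest (0.38, 2322 in wt and 3021 in *sgo2*Δ), both INO80 subunits. The ATPase gene *swr1* stood at 0.04, where *pht1*, whose product it exchanges, stood at 0.12. The list of kinases and binding proteins of phosphorylated H2A held 8 genes including *sgo2*. Apart from *sgo2*, 0 differed 2-fold, and they ran from 0.05 (*brc1*) to 0.23 (*tel1*), with *bub1*, the kinase gene for the H2A mark that Sgo2 binds, at 0.20 (560.8 and 643.6).

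As most core histone messages peak in S phase, genes linked to the G1/S transition or to M phase and cytokinesis were set beside them. Of 18 genes transcribed at the G1/S transition or acting in its control, 16 were measured. Beside shares of 0.536% higher and 0.0358% lower among all named genes, 0 of these 16 differed 2-fold. Their median was 0.07, with 12 above 0 and 4 below, where 84.7% of all named genes lay above 0, and 7 of the 16 lay above the median of all named genes. They included *cdc18*, which licenses replication origins, at 0.16, and *cdc22*, a ribonucleotide reductase gene, at 0.06. The extremes were *psm3*, a cohesin gene, at 0.48 (538.1 and 752.9) and *res2*, a transcription factor gene, at -0.45 (138.9 and 101.6), the latter among the dimmest genes. Of 17 genes of M phase and cytokinesis, 15 were measured, with a median of 0.08 and a range of -0.17 (*fkh2*) to 0.32 (*klp5*, a kinesin gene). The 10 histone genes, with their range of 0.20, spanned less than either list, and were also brighter than every gene of both. After centring, the median was -0.06 for the G1/S genes and -0.05 for the genes of M phase and cytokinesis, beside -0.11 for the histone genes. Under quantile normalization, the same lists stood at -0.09, -0.08 and -0.05, so that the order of the lists depended on the scaling.

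**Figure D4:**
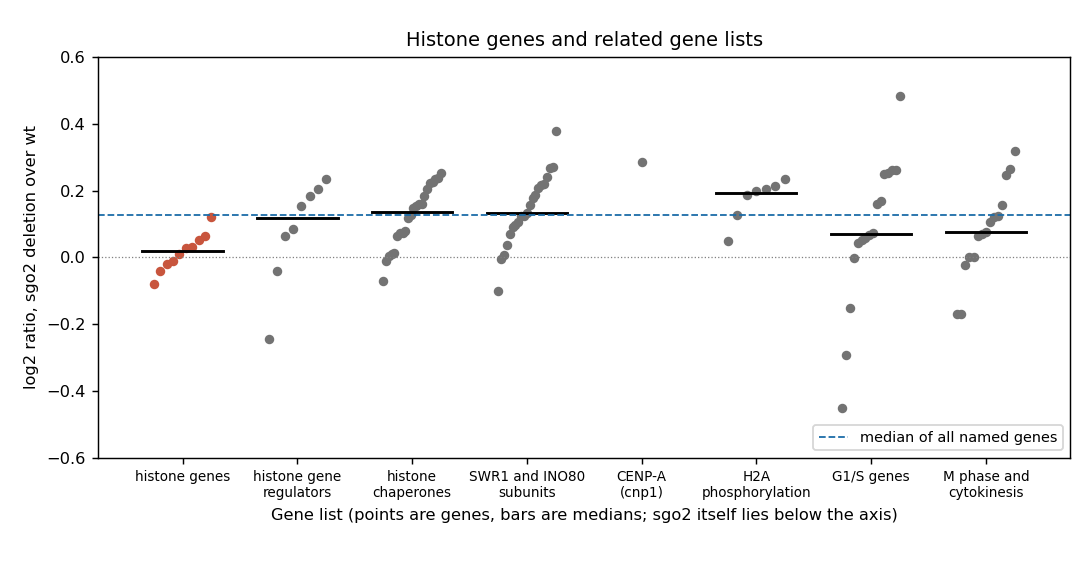
Log2 ratio of *sgo2*Δ over wt (y axis, signals as deposited) of each measured gene of the histone genes (red) and the related lists (grey), with black bars for list medians and the dashed line for the median of all named genes (0.13); *sgo2* lies below the axis. The histone genes have the lowest median of these lists with signals as deposited, 0.02, and no gene drawn reaches 2-fold. The genes *hip1*, *hip3*, *hip4* and *slm9* are drawn under both the regulators and the chaperones.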

How the data were processed

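Poly(A) RNA of wt and *sgo2*Δ cells was hybridized to 1 array each. The authors scanned and scaled the arrays with GCOS 1.4 at default settings and masked the probe sets of *S. cerevisiae*; the values deposited by the authors are intensities on a linear scale, and the target of the scaling is not given in the sources used here. Scaling of this kind fixes only the average level of an array, so small ratios of single genes depend on it. Gene names came from GEO's annotation of the platform, with symbols updated by gene identifier to ASM294v3. Of those with a signal, 2917 named 1 gene, 20 several and 2109 none, besides 134 controls. Where a gene had several probe sets their log2 signals were averaged, and the arrays were then subtracted, *sgo2*Δ minus wt. No genome build is named for the array, so coordinates are not printed. Orientation was read from the suffix C of locus tags, and adjacency from gene order.

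Calls required 2-fold and a signal of 100 on the brighter array. No test was possible with 1 array per strain, and precision is limited by that number. Alternatives were centring, quantile normalization, a pseudocount of 100, a floor of 50 or none, the brightest probe set, sets without suffix _s or _x, and 1.5-fold. The text names every histone gene, *sgo2*, *ams2*, *teb1*, *cnp1*, *swr1*, *bub1*, measured neighbours and the extremes of each list. Further genes (*pcf1*, *pcf2*, *pcf3*, *asf1*, *nap1*, *cdc18*, *cdc22*) were picked with their values in view. The members and lists were chosen with earlier results of these data known. Python 3.11.15 with numpy 2.4.6, pandas 2.3.3 and matplotlib 3.10.9 was used.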

Additional observations from a re-analysis of the deposited data

How the results depend on the processing

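No paired analysis was possible because there is 1 array for each strain, and no replicate could be left out. The numbers of histone genes called higher or lower stayed at 0 under every alternative run. A median was taken to have moved where it shifted by more than the spread of log2 ratios over all named genes (0.13). Centring, which by its construction subtracts 0.13, moved the median of the histone genes to -0.11, and those of the regulators to -0.0091, the chaperones to 0.0089, the SWR1 and INO80 genes to 0.0053, the genes of H2A phosphorylation to 0.064, the G1/S genes to -0.058 and the genes of M phase and cytokinesis to -0.053. Quantile normalization moved all of these except the median of the histone genes, to -0.056, -0.029, -0.017, 0.031, -0.091 and -0.084 in the same order. Of 354 values computed under an alternative, 313 were counted as unmoved and 41 as moved. Many of these labels were fixed by construction, so their numbers do not measure how stable the results are. Centring subtracts 0.1283, just over the limit of 0.1258, so each log2 ratio or median counts as moved and each gap as unmoved. Histone probe sets had signals from 4088 upwards, so the floors could not alter them. The choice of probe set could not alter the 7 histone genes with 1 probe set. Those 313 include the numbers of genes called higher or lower in the lists. These numbers were not compared with the spread, and each kept its value under every alternative run. The log2 values among the 313 shifted by no more than the spread. Of the 41 moved values, 28 were of single genes or probe sets. The pseudocount, the floors and the choice of probe set moved no median by more than the spread. Saturation of bright probes could not be assessed from the scaled signals.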
